A study of Caenorhabditis elegans with 2 samples.

Results

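The genes described here encode 10 factors of the machinery that cleaves pre-mRNAs at their 3′ end and adds the poly(A) tail in Caenorhabditis elegans. They are cpsf-1, cpsf-2 and cpsf-4 of the cleavage and polyadenylation specificity factor (CPSF), cpf-1, cpf-2 and suf-1 of the cleavage stimulation factor (CstF), the scaffold gene symk-1, the poly(A) polymerase gene pap-1, and the poly(A)-binding protein genes pabp-2 and pab-1. They were chosen by name among 19973 annotated protein-coding genes. Their data are the deposited intervals that covered at least 10 nt of a gene's stop codon, 3′ untranslated region (3′ UTR) or coding exons. There were 7 such intervals of 4818 in the list. Total RNA came from N2 worms, the laboratory wild-type strain, of mixed stages, with no treatment or mutant group. Oligo-dT primed cDNA was amplified from a primer specific to each transcript, the products were cloned, and the inserts of 6432 minipools of bacterial transformants were pyrosequenced. The series names 2 runs, and the list is filed under this one. The sources used here do not say if it also holds reads of the second run, which had 49152 barcoded amplicons and 5952 further minipools. The list gives positions without read counts, strand or gene, so read depth is unknown and no value has a replicate error.

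A nascent transcript is cut a short distance after a poly(A) signal, most often the hexamer AAUAAA, and the tail is added to the new end. CPSF recognises the signal and holds the endonuclease, CstF binds U- and GU-rich sequence after the cut site, symplekin joins CPSF to its partners, and poly(A) polymerase makes the tail, whose length the nuclear poly(A)-binding protein helps to set. The cytoplasmic poly(A)-binding protein then coats the tail and links it to translation and decay. These genes therefore act on the kind of 3′ end that the cloned products were made to record, and their own mRNAs are among the possible targets.

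Of the 10 genes, 5 had an interval at their 3′ end (50%, exact binomial 95% interval 18.7 to 81.3), namely cpsf-1, cpf-2, suf-1, symk-1 and pap-1. Over all protein-coding genes the share was 21.1%. In cpsf-1, cpf-2, suf-1 and symk-1 the 5′ edge of the interval lay no more than 60 nt ahead of the last base of the stop codon, which is called starting near it below. Over all genes the share with such an interval was 16.3%. suf-1 also had an interval within its coding exons, and pabp-2 had a coding interval and no 3′ interval. The remaining 4 genes, cpsf-2, cpsf-4, cpf-1 and pab-1, had none of either kind, as was true of most protein-coding genes. A coding interval without a 3′ interval was found in 1.93% of all genes. The sources used here do not say which genes had a primer, so these counts depend both on which genes were targeted and on which were recovered, and the 95% interval covers counting error only.

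**Figure D1:**
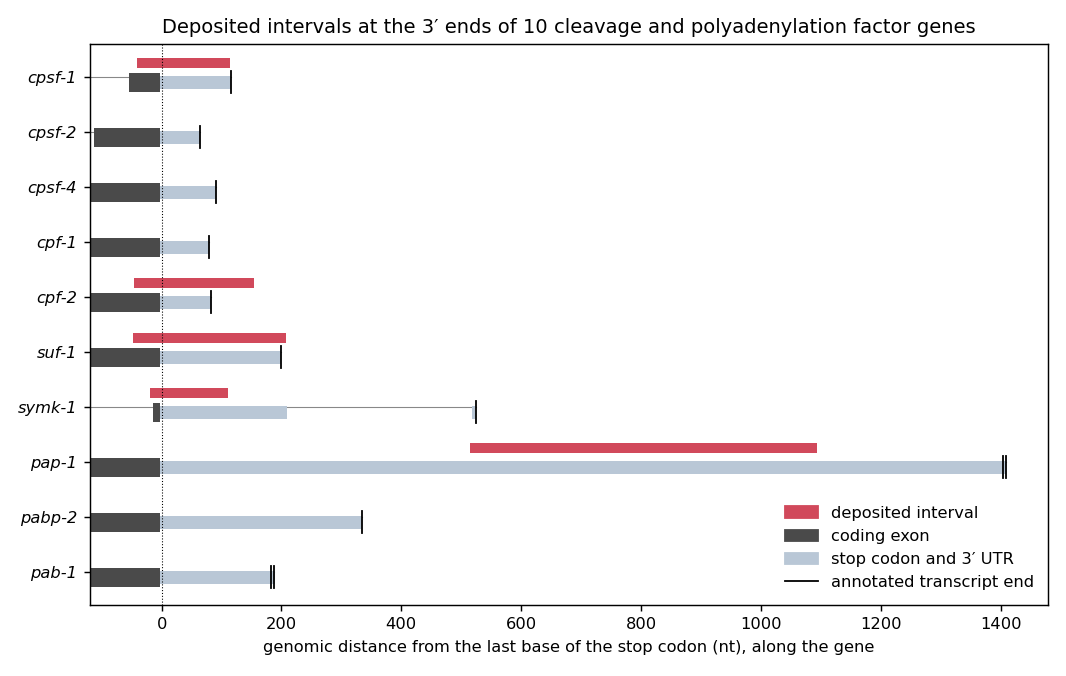
Position of each deposited interval (red) relative to the stop codon of the 10 genes, in genomic nt along the gene. Dark boxes are coding exons, pale boxes the stop codon and 3′ UTR of the annotation, and vertical bars annotated transcript ends; the cpsf-1 and suf-1 intervals end close to such a bar, those of symk-1 and pap-1 end before it, and that of cpf-2 runs 71 nt past it.

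Interval coordinates keep the numbering of the file, and the sources used here do not name its genome build. Distances to stop codons, exons and transcript ends were taken after a local shift to assembly WBcel235, and lengths after the stop codon are genomic unless said otherwise. Estimated in 4 ways, the shift was least certain at suf-1, where it was set to 73 nt and the other estimates ran from 65 to 84 nt. It was 120 to 122 nt at cpf-2, 25 to 32 nt at pap-1, 18 to 20 nt at symk-1, 8 to 9 nt at pabp-2 and −2 to 6 nt at cpsf-1.

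cpsf-1 encodes the large subunit of CPSF that serves as its scaffold. Its interval (chromosome IV, 2009038 to 2009191, minus-strand gene) was 154 nt long, had 40 nt ahead of the last base of the stop codon and 113 nt after it. The annotated 3′ UTR has 116 nt, so the end lay 3 nt short of the annotated end, within the spread of the shift. Over all genes there were 3183 pairs of a gene with an annotated end and an interval starting near its stop codon. In 61.7% of them the interval ended within 20 nt of such an end. The shift was fitted to the same annotation, which may itself not be independent of these data. Closeness to an annotated end is thus no separate check, here or in the genes below. The 3′ end of xpc-1, on the opposite strand, is annotated with 10 nt between it and that of cpsf-1. Its own interval (IV, 2007856 to 2007969) ended 80 nt after its stop codon and at −1055 nt from the annotated end (negative values lie upstream). The deposited cpsf-1 and xpc-1 intervals thus did not meet. The annotated 3′ UTR of xpc-1 has 1135 nt, and no interval starting near a stop codon reached more than 670 nt past it. A meeting could therefore not be seen with intervals of this kind. cpsf-2, which encodes a relative of the CPSF endonuclease that is itself held to be inactive, and cpsf-4, which encodes a zinc finger subunit, had no interval. Their annotated 3′ UTRs are 64 and 90 nt long.

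Of the CstF genes, suf-1, which encodes the subunit that bridges the complex, had an interval that ended close to the annotated end. Its interval (II, 8606425 to 8606679) was 255 nt long, with 47 nt ahead of the last base of the stop codon and 207 nt after it, against an annotated 3′ UTR of 199 nt. The end lay 8 nt past the annotated one, and 0 to 19 nt past it under the other estimates of the shift. The second suf-1 interval (II, 8604480 to 8604608) measured 129 nt and was coding along its whole length. It lay inside 1 exon, between 80 and 208 nt from the exon's 5′ edge, and ended 1864 nt before the last base of the stop codon.

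The interval of cpf-2, whose product binds the RNA for CstF, could not be given to 1 gene. It was 200 nt long (III, 13266741 to 13266940) and held a stop codon near each edge. That of cpf-2 ended 46 nt from its right edge, and that of F56A8.5, on the opposite strand, 24 nt from its left edge. The annotated ends of both genes fall on the same base, where their 3′ UTRs of 82 nt (cpf-2) and 47 nt (F56A8.5) overlap by 1 nt. Measured from its own edge to that base, a cpf-2 product would have 129 nt and an F56A8.5 product 72 nt, which is shorter than any interval in the file (96 nt). The 71 nt by which the interval passed the annotated end of cpf-2 therefore lay in F56A8.5, and the data do not tell whether 1 or both genes were cloned. Counted once each, 3154 intervals started near a stop codon of any gene, and 3.61% of them had stop codons of both strands near their edges. cpf-1, which encodes the WD-repeat subunit of CstF, had no interval. Its 3′ UTR is 79 nt long, and the annotated transcript of F28C6.5 on the opposite strand overlaps the last 82 nt of the gene. F28C6.5 had no 3′ interval either.

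symk-1, the worm's symplekin gene, had a short interval that ended inside its 3′ UTR. The list does not show whether an mRNA ends there. The interval (V, 8581182 to 8581312) measured 131 nt and ended 111 nt after the stop codon. The annotated 3′ UTR is 214 nt long and spliced, with 208 nt in one exon and 6 nt in a last exon behind an intron of 310 nt. The interval thus covered 51.9% of the annotated 3′ UTR and ended 97 nt before the splice site and 413 genomic nt before the annotated end. In 24.3% of the 3183 pairs over all genes, the interval stopped over 20 nt upstream of the closest annotated end. Its 5′ edge lay 19 nt ahead of the last base of the stop codon, at percentile 5.22 of all such distances, and 5 nt outside the 5′ edge of the exon. Among all 3268 pairs of a gene and an interval starting near its stop codon, with or without an annotated end, 4.22% had the 5′ edge within 10 nt of an exon edge. The symk-1 exon holds 12 coding nt and follows an intron of 6971 nt, so mRNA sequence further upstream lies in the exon before it.

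pap-1, the nuclear poly(A) polymerase gene, had the longest interval of the 10 genes, at percentile 99.7 of all interval lengths. It measured 579 nt (V, 10445547 to 10446125) and lay wholly in the 3′ UTR. It started 515 nt after the stop codon, close to the 5′ edge of an exon that 2 of the 3 annotated transcripts use. The start lay 2 nt inside that exon, and outside it under 2 of the other estimates of the shift. In these transcripts the stop codon is followed by 6 nt, an intron of 506 nt and a last exon of 897 nt, and the third transcript keeps the intron and has a 3′ UTR of 1404 nt. In 581 cases an interval started after the stop codon of a gene, and 7.92% of these had their 5′ edge within 10 nt of an exon edge. The pap-1 interval ended 1093 genomic nt after the stop codon, which is 587 nt of 3′ UTR in the spliced form, and 311 nt short of the nearest annotated end. No interval covered its stop codon. In the spliced form the part of a product before this exon would have 6 nt plus the stretch that the primer adds. That stretch had a median of 32 nt over all genes, and the sum would be under the shortest length in the file. The transcript that keeps the intron has no such short part, and the part of length in the missing interval was not tested. A spliced 3′ UTR was annotated for 2 of the 10 genes (symk-1 and pap-1) and for 4.67% of all genes with a 3′ UTR.

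The poly(A)-binding protein genes gave no 3′ interval. pabp-2, the nuclear one, held a coding interval of 166 nt (I, 9421546 to 9421711). It was coding throughout, lay in the second of 3 exons, and its 3′ edge fell 0 nt from the end of that exon, 309 nt before the last base of the stop codon. Of the 797 coding intervals in the list, 43.2% had an edge within 10 nt of an exon edge, and 58.5% were coding along their whole length. A coding interval was found in 3.32% of all genes, and in 1.93% without a 3′ interval. In the annotation the last pabp-2 exon has 593 nt, with a 3′ UTR of 334 nt, and no interval lay on it. pab-1, the cytoplasmic one, had no interval over its stop codon, 3′ UTR of 183 or 188 nt, or coding exons. The nearest one (I, 10435671 to 10435797, 127 nt) lay over its 5′ UTR, 2640 nt before the last base of the stop codon and 10 nt from the end of the first exon. With 0 nt of coding sequence or 3′ UTR it fell outside the overlap rule, whereas the smallest overlap of the intervals taken was 114 nt of stop codon and 3′ UTR plus 12 nt of coding sequence, in symk-1.

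**Figure D2:**
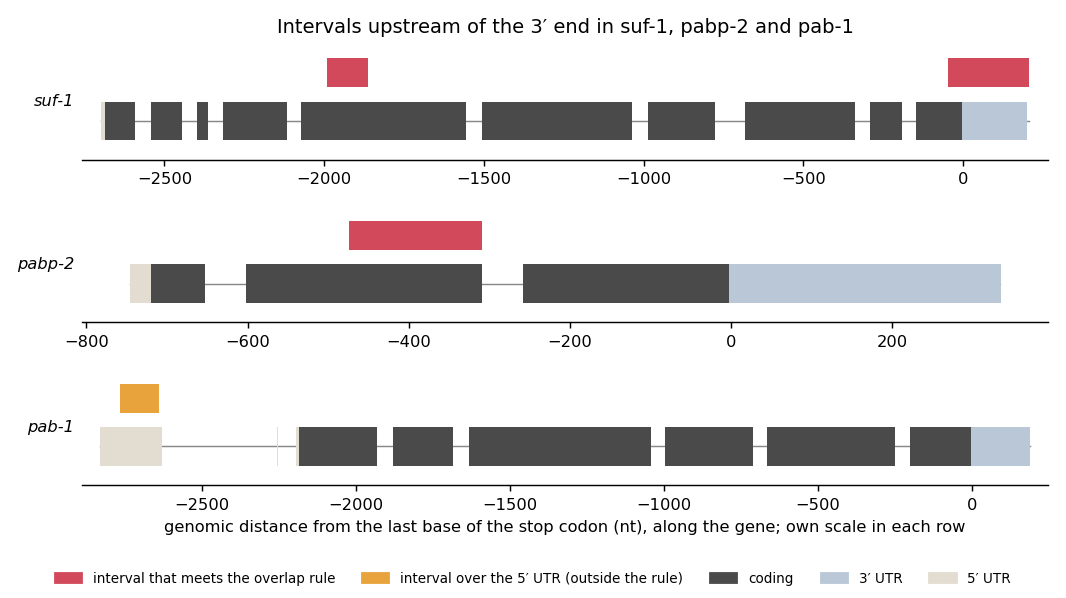
Gene models of suf-1, pabp-2 and pab-1, each on its own scale in genomic nt from the stop codon, with deposited intervals above. The suf-1 coding interval sits inside 1 exon, that of pabp-2 ends 0 nt from an exon edge, and that of pab-1 (orange) lies over the 5′ UTR, 2640 nt before the stop codon.

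The length after the stop codon could be compared in the 4 genes whose interval started near it. It was 111 nt in symk-1, 113 nt in cpsf-1, 153 nt in cpf-2 and 207 nt in suf-1, with a median of 133 nt. Over the 3263 genes with such an interval the median was 156 nt and the middle 50% of values ran from 108 to 238 nt. The symk-1 and cpsf-1 values stood at percentiles 26.6 and 27.6 of all genes, and that of suf-1 at 67.7. All 4 thus lay within that middle range, and with 4 genes, 1 of them not separable from its neighbour, no difference from the rest can be read from them. The stretch ahead of the last base of the stop codon was 19 nt in symk-1, 40 nt in cpsf-1, 46 nt in cpf-2 and 47 nt in suf-1, and between 27 and 38 nt in the middle 50% of all such intervals.

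**Figure D3:**
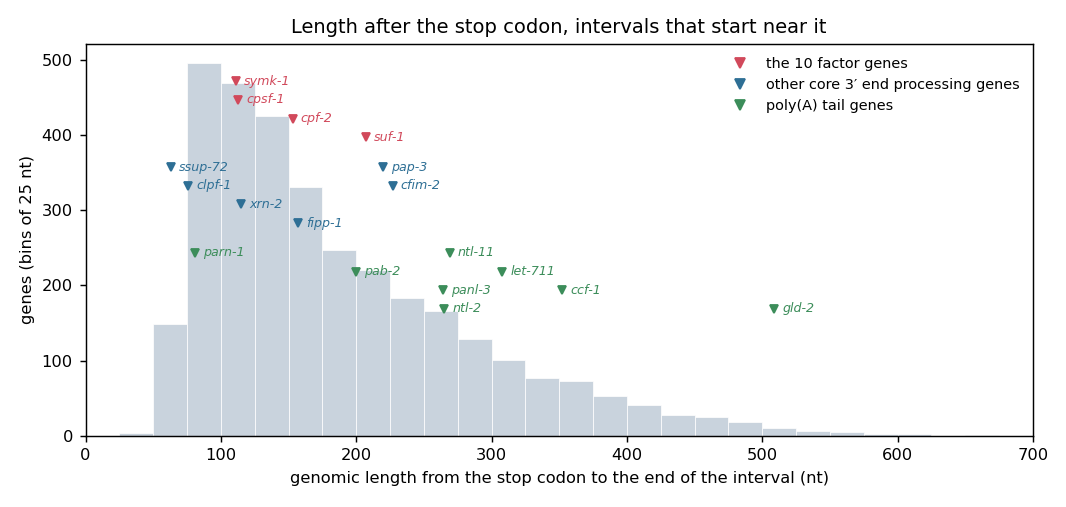
Genomic length of the interval beyond the stop codon, for genes whose interval starts near it (grey bars, genes per 25 nt). Triangles mark single genes, and their height has no meaning; the 4 factor genes (red) lie between 111 and 207 nt, and the poly(A) tail genes (green) reach 509 nt in gld-2.

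The annotated 3′ UTRs of the 10 genes, taking the longest of each, had a median of 152 nt and ran from 64 nt (cpsf-2) to 1404 nt (pap-1). The median over the 16794 genes with an annotated 3′ UTR was 131 nt. Of the 4 genes with a 3′ UTR of at most 100 nt (cpsf-2, cpsf-4, cpf-1 and cpf-2), 1 had a 3′ interval, the one shared with F56A8.5. Of the 6 longer ones, 4 had one. Over all genes with an annotated 3′ UTR the shares were 14.2% of 6472 genes at most 100 nt and 31.0% of 10322 genes over 100 nt. The share grew from 6.70% for 3′ UTRs of 1 to 50 nt to 11.7% for 51 to 70 nt, the class of cpsf-2, and 23.4% for 71 to 100 nt, and lay between 30.0% and 32.0% in each longer class. The annotated 3′ UTR of cpsf-2 with the median stretch of 32 nt before it comes to 96 nt, equal to the shortest interval in the file. The same sum is 111 nt for cpf-1, 122 nt for cpsf-4, 220 nt for pab-1 and 366 nt for pabp-2, all above that length. The part of 3′ UTR length in the missing intervals was not tested.

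**Figure D4:**
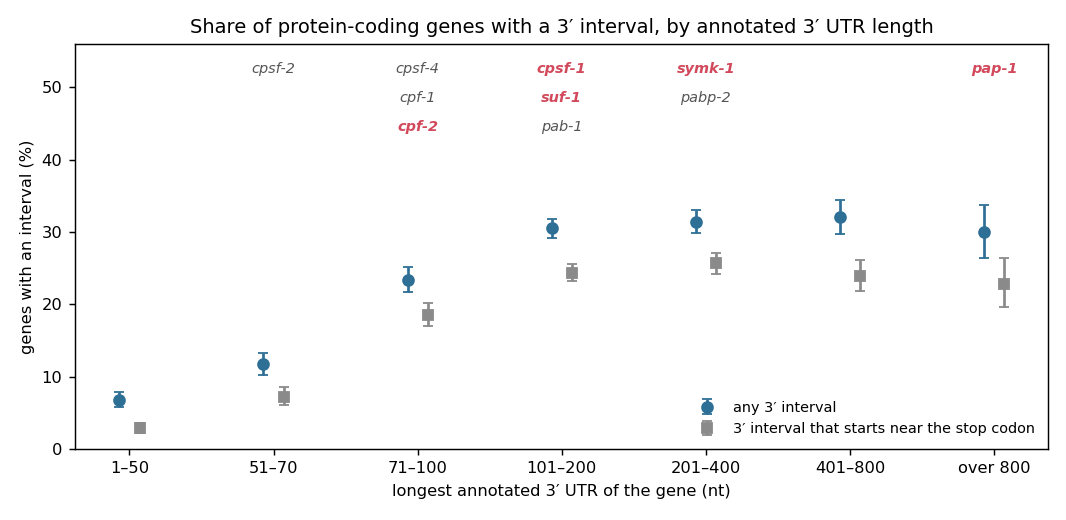
Share of annotated protein-coding genes with a 3′ interval by the longest annotated 3′ UTR, with exact binomial 95% intervals, for any 3′ interval (circles) and for those that start near the stop codon (squares). Names above show the class of each of the 10 genes, bold red for those with a 3′ interval; both shares rise up to about 100 nt, and above it lie at 30.0% to 32.0% (circles) and 22.9% to 25.6% (squares).

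Of 14 other core genes of 3′ end formation, 6 had an interval at the 3′ end (42.9%, 17.7 to 71.1), against 21.1% of all genes. Each of the 6 had one that started near the stop codon, and these reached a median of 136 nt past it, against 156 nt over all genes. They were fipp-1, cfim-2, clpf-1, ssup-72, xrn-2 and pap-3. The ends of xrn-2, an exonuclease gene of transcription termination (115 nt after the stop codon), ssup-72, a phosphatase gene acting on RNA polymerase II (63 nt), fipp-1, which encodes the Fip1-like CPSF subunit (157 nt), and clpf-1, a Clp1-like factor gene (76 nt), lay 1 to 10 nt from an annotated end. The intervals of fipp-1 and clpf-1 also covered at least 10 nt of a 3′ UTR on the opposite strand, of neg-1 and npp-9. pap-3, named as a poly(A) polymerase gene, has no annotated 3′ UTR, and its interval (II, 11814609 to 11814875) ran 220 nt past the stop codon. pap-2, with 1662 coding nt as in pap-3, had none. The sources used here do not say how reads that match more than 1 gene were placed.

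cfim-2, a cleavage factor Im subunit gene, was the listed gene with most 3′ intervals, 3 in number, against more than 1 in 1.9% of all genes with one. The first (IV, 8928985 to 8929237) started near the stop codon and reached 227 nt past it, 3 nt from an exon edge. The second (IV, 8929800 to 8929975) started 3 nt from an exon edge and ended 3 nt short of an annotated end. The third (IV, 8930198 to 8930327) started 1 nt from an exon edge and ended 0 nt from another annotated end. Of the 3′ edges, only that of the interval at 8928985 lay by an exon edge. That edge may be an exon border, so the 3 intervals need not be 3 separate ends. The 3′ edge of the interval at 8929800 lay 54 nt before an exon edge, and that at 8930198 lay 130 nt after one. Each of these edges lay by a different annotated end, which is no separate check. Whether the 3 intervals are separate ends was not tested. rbpl-1, pfs-2 and cids-1 had coding intervals and no 3′ interval, as did 1.93% of all genes. rbpl-1, which encodes a relative of the RBBP6 subunit, had 4 of them. No interval of either kind was found for cpsf-3, the endonuclease gene itself, cfim-1, pcf-11, cids-2 or pap-2.

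Of 15 genes that bind, trim or extend the tail, 8 had an interval at the 3′ end (53.3%, 26.6 to 78.7), against 21.1% of all genes. The median length after the stop codon was 267 nt, against 156 nt over all genes. It rests on 8 genes with values from 81 to 509 nt, and no difference was tested. The ntl-11 value of 269 nt was counted from a stop codon that lies within coding sequence of another transcript. Of that 289 nt interval, 220 nt are annotated as coding and 69 nt as stop codon and 3′ UTR alone. In 5 of the 8, and in 24.3% of the pairs over all genes, the interval stopped over 20 nt upstream of the closest annotated end. In pab-2, which encodes a further cytoplasmic poly(A)-binding protein, the interval ended 200 nt after the stop codon (X, 13522928 to 13523174) and 731 nt short of the nearest annotated end. The shortfall was 594 nt in gld-2, the cytoplasmic poly(A) polymerase gene, 428 nt in panl-3 and 380 nt in let-711, the scaffold gene of the CCR4-NOT deadenylase, and 95 nt in ntl-11 (the nearer of its 2 intervals). All annotated 3′ UTRs of pab-2, gld-2, panl-3 and let-711 are longer than 600 nt. Among all 125 pairs of such a gene and an interval starting near its stop codon, 98.4% ended more than 20 nt upstream, so the 4 genes did what nearly all genes of that length did. No interval in the file exceeded 839 nt, and those starting near a stop codon reached at most 670 nt past it. Every annotated 3′ UTR of these 4 genes is longer than that, and the 125 pairs include the 4 genes. ccf-1, a deadenylase gene with an annotated 3′ UTR of 361 nt, ended 9 nt short of it, at 352 nt. The intervals of ntl-2 and parn-1 ended 58 and 26 nt past the annotated end, that of parn-1 over the 3′ UTR of frpr-15 on the opposite strand. ccr-4, ntl-3, ntl-9, panl-2, parn-2, gld-3 and gld-4 had no 3′ interval.

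**Figure D5:**
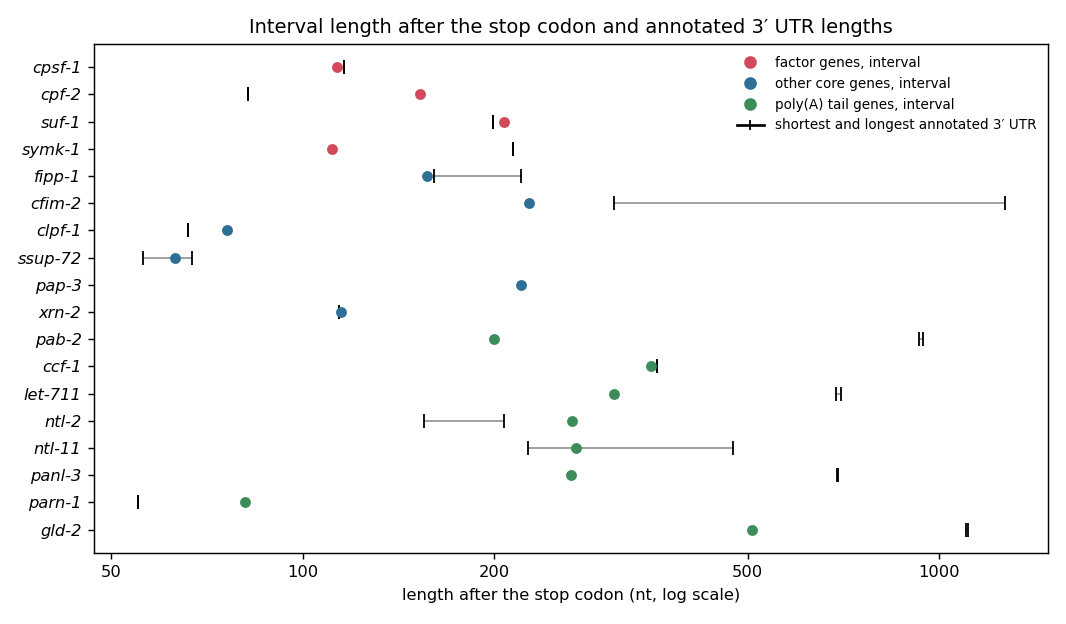
Genomic length after the stop codon of the longest such interval of each gene (points) beside the shortest and longest annotated 3′ UTR (vertical bars), on a log scale. Annotated lengths count exons only, so the measures differ where a 3′ UTR is spliced. cpsf-1 and suf-1 lie by their bars, symk-1 to the left of its bar at 214 nt, and pab-2, let-711, panl-3 and gld-2 far to the left of theirs; pap-3 has no annotated 3′ UTR.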

How the data were processed

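The deposited list has 4818 intervals with start and end in nt and no header. The score that the authors deposited is 0 throughout and the strand always a plus sign, so neither was used. The sources used here do not give the assembly of reads, aligner, filters or build. Genes came from Ensembl release 115 on WBcel235. The shift between the numberings laid most interval bases on annotated 3′ UTRs in each 3 Mb window (searched to 6000 nt either way) and was refined per 1 Mb window from edge-to-stop-codon distances on both strands. A 3′ interval covered at least 10 nt of stop codon and 3′ UTR not coding in another transcript, or started near a stop codon that it covered. A coding interval covered at least 10 nt of coding exon and was no gene's 3′ interval. Annotated ends were those of transcripts with a 3′ UTR. Intervals of shares are Clopper-Pearson. With 1 library no test was made. Members, lists and limits were chosen with earlier results of these data known. The text names the 10 genes, listed genes with an interval, and genes on the opposite strand that share an interval or end within 500 nt; listed genes without an interval were named after their values were seen. Functions were tested on simulated intervals from near a stop codon to near an annotated end (Python 3.11.15, numpy 2.4.6, scipy 1.17.1). Their shift changed only at borders of 1 Mb windows, and coding intervals, intervals ending early and drift within a window were not simulated. A planned search for poly(A) signals was not run.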

Additional observations from a re-analysis of the deposited data

How the results depend on the processing

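Shift, smallest overlap, limit for a start near the stop codon and choice of annotated end were each varied where they could bear on a value. Recomputed were the counts of the 10 genes and both lists, the end distances of the 10 genes, the listed genes and the facing genes, the medians after the stop codon, and shares over all genes. Those of the 3′ UTR classes beyond the split at 100 nt, of exon edges and of whole-length coding were not. Counts stayed within 1.5 times and medians and distances within 20 nt of the values given, with these exceptions. Without any shift, the median of the 10 genes was 103.5 nt instead of 133 nt, the end of suf-1 lay at −65 nt and that of pap-1 at −342 nt from the annotated end, and 4 of the 10 genes had a 3′ interval, since cpf-2 lost its own. Among listed and facing genes most ends moved by over 20 nt without a shift. When measured to the end of the longest 3′ UTR, 4 of 24 did (2 in cfim-2, 1 each in fipp-1 and ntl-11). With starts allowed up to 40 nt ahead of the last base of the stop codon the median was 112 nt, from fewer genes. Of the shares over all genes, that with a 3′ interval was 20.2% without a shift and 19.7% at an overlap of 50 nt. That with a start near the stop codon was 9.72% without a shift, 13.5% at 40 nt and 17.1% at 100 nt. The coding-only share was 2.57% without a shift and 2.37% at 50 nt. For 3′ UTRs of at most 100 nt the share was 12.9% without a shift and 12.1% at 50 nt, and for longer ones 29.8% at 50 nt. Past 18 Mb of chromosome V, 1 shift did not serve the whole window, and no gene described here lies there. The shift refined in windows of 0.5 Mb centred on each interval, and the runs on listed and facing genes, list and all-gene medians and shares other than that with a 3′ interval, were chosen after seeing the data. No paired analysis was possible because 1 list with no replicate was analysed. Depth is unknown, so a missing interval does not show that an mRNA or a 3′ end is absent.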

Other observations

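Of 6 listed genes without a 3′ interval that face a gene ending within 500 nt, the facing gene had one in 2, ntl-3 and panl-2. It had none in cpf-1, pab-1, cfim-1 and gld-4. Over all protein-coding genes the share with a 3′ interval was 21.1%. The annotated ends of ntl-3 and of rsp-8, on the opposite strand, lie 38 nt apart, and the rsp-8 interval (III, 11830580 to 11830855) ended 1 nt past the annotated rsp-8 end. Likewise, F57B9.1 ends 301 nt from panl-2, and its interval (III, 6963114 to 6963272) ended 9 nt past its annotated end. let-711 and rpn-6.1, a proteasome lid subunit gene, each had a 3′ interval. That of rpn-6.1 (III, 6959054 to 6959186) started 149 nt after its stop codon and ended 0 nt from its annotated end, 281 nt after the stop codon. These values belong to no planned comparison and were not tested.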
